A study of Arabidopsis thaliana with 18 samples.

Results

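The chloroplast carries its own small genome, and 69 of the 22746 probe sets tested on the array report on a single gene of it, out of 13350 genes that the annotation gives a probe set of their own. They were chosen by symbol: psa, psb, pet, ndh and rpo genes, the atp genes with a letter suffix, plastid rps, rpl and ycf genes, and rbcL, ccsA, accD, matK, clpP and cemA. Earlier results of these data were known when the list was chosen. The 69 probe sets stand for 69 of the 78 plastid protein-coding symbols in the TAIR10.1 gene table, and none of them shares a gene. Another 8 plastid probe sets that each name 2 copies of a gene were left out. The members fall into 22 photosystem genes (7 of photosystem I with its assembly factors ycf3 and ycf4, and 15 of photosystem II), 10 genes of the NADH dehydrogenase-like (NDH) complex, 19 genes of the ribosome and RNA polymerase (15 and 4), and 18 others (6 of the cytochrome b6f complex, 6 of the ATP synthase, rbcL, accD, ccsA, cemA, clpP and matK).

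Whole rosettes of 5-week-old Arabidopsis thaliana, all of the Columbia 0 ecotype, were kept in the dark for 1.5 h either under hypoxia (1% O2) or in air (21% O2), so the air plants were darkened too. The 3 genotypes were 35S::HA::RAP2.12 (HA-RAP2.12 below, an epitope-tagged copy of RAP2.12 behind the 35S promoter), 35S::amiRAP2.2-12 (amiRAP2.2-12 below, an artificial microRNA named for RAP2.2 and RAP2.12, behind the same promoter) and wild type. RAP2.12 and RAP2.2 are transcription factors of the ethylene response factor family that take part in the transcriptional response to low oxygen, and the 35S promoter is active in most tissues. Each of the 6 groups had 3 arrays, 18 in all, and the labels do not say whether a transgenic group came from a single line or whether replicates were separate plants. The p-values below therefore measure only the spread between these samples. No probe set for either transcription factor was used here.

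Plastid genes encode part of the photosynthetic machinery, while nuclear genes supply the rest of each complex, and they also encode much of the ribosome and the core of the polymerase that the plastid uses to express them. That plastid-encoded polymerase transcribes mainly photosynthesis genes, a nuclear-encoded polymerase of phage type also serves housekeeping genes such as accD and rpoB, and most plastid mRNAs are first made as parts of longer transcripts that span several genes. Plastid mRNAs mostly lack the stable poly(A) tails of nuclear mRNAs, whereas standard labelling for these arrays starts from poly(A). The labels name only the standard labelling protocol, so how well these transcripts were captured on each array is not known. In whole rosettes, fewer plastids or green cells and less RNA per cell cannot be told apart.

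All values are deposited GCRMA values on the log2 scale, and a difference is one group's mean log2 value minus another's. Levels of different probe sets are not compared, since each set of probes binds with its own strength. No group mean of a member was below 3.81 and 65 of the 69 members averaged above log2 6, the limit used here for a bright probe set (10988 of all probe sets). Median levels of the 18 arrays over all probe sets lay between 5.59 and 5.81. The plastid members varied more between replicates than bright probe sets did in 5 of the 6 groups, and about as much in HA-RAP2.12 under hypoxia: their median SD was 0.12 in HA-RAP2.12 under hypoxia, 0.29 in HA-RAP2.12 in air, 0.47 in amiRAP2.2-12 under hypoxia, 0.30 in amiRAP2.2-12 in air, 0.31 in wild type under hypoxia and 0.19 in wild type in air, against 0.12, 0.14, 0.22, 0.15, 0.11 and 0.10 for bright probe sets in the same groups. Several arrays stood apart in the plastid members as a whole. Replicate 2 of amiRAP2.2-12 under hypoxia had 64 of 69 members below the group mean (median deviation −0.52), replicate 1 of that group had 68 above it (median 0.34), and replicate 3 of HA-RAP2.12 in air had 68 above it (median 0.27). In wild type under hypoxia the median shift from the wild type air mean was −0.02 in replicate 1, −0.64 in replicate 2 and −0.30 in replicate 3. Bright probe sets on these arrays had signed median deviations of at most 0.02, which normalization between arrays keeps small. Their median absolute deviation was 0.20 on replicate 2 and 0.15 on replicate 1 of amiRAP2.2-12 under hypoxia, against 0.52 and 0.34 for members. That of replicate 2 was the largest of the 18 arrays, so this array stood apart beyond the plastid members too. Medians and counts of comparisons that rest on such arrays are given with and without them. Group means, class means and gaps between classes are given over all arrays only.

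The classes of plastid genes moved together across arrays. Photosystem and NDH class means correlated at r = 0.94 over the 18 arrays, photosystem and ribosomal/polymerase means at 0.92, and NDH and ribosomal/polymerase means at 0.90. These correlations share the arrays and their normalization and are descriptive. Averaged over the 69 members, the level was 10.45 ± 0.06 in HA-RAP2.12 under hypoxia, 10.41 ± 0.28 in HA-RAP2.12 in air, 10.43 ± 0.48 in amiRAP2.2-12 under hypoxia, 10.21 ± 0.40 in amiRAP2.2-12 in air, 9.86 ± 0.29 in wild type under hypoxia and 10.21 ± 0.10 in wild type in air (SD, n = 3 arrays each). Over these members wild type under hypoxia had the lowest mean of the 6 groups, and the other 5 means ranged from 10.21 to 10.45. The 8 left-out plastid probe sets that name 2 copies ranked the groups otherwise. They averaged 9.19 ± 0.44 in amiRAP2.2-12 in air and 9.45 ± 0.63 in amiRAP2.2-12 under hypoxia, below 9.74 ± 0.53 in wild type under hypoxia.

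**Figure D1:**
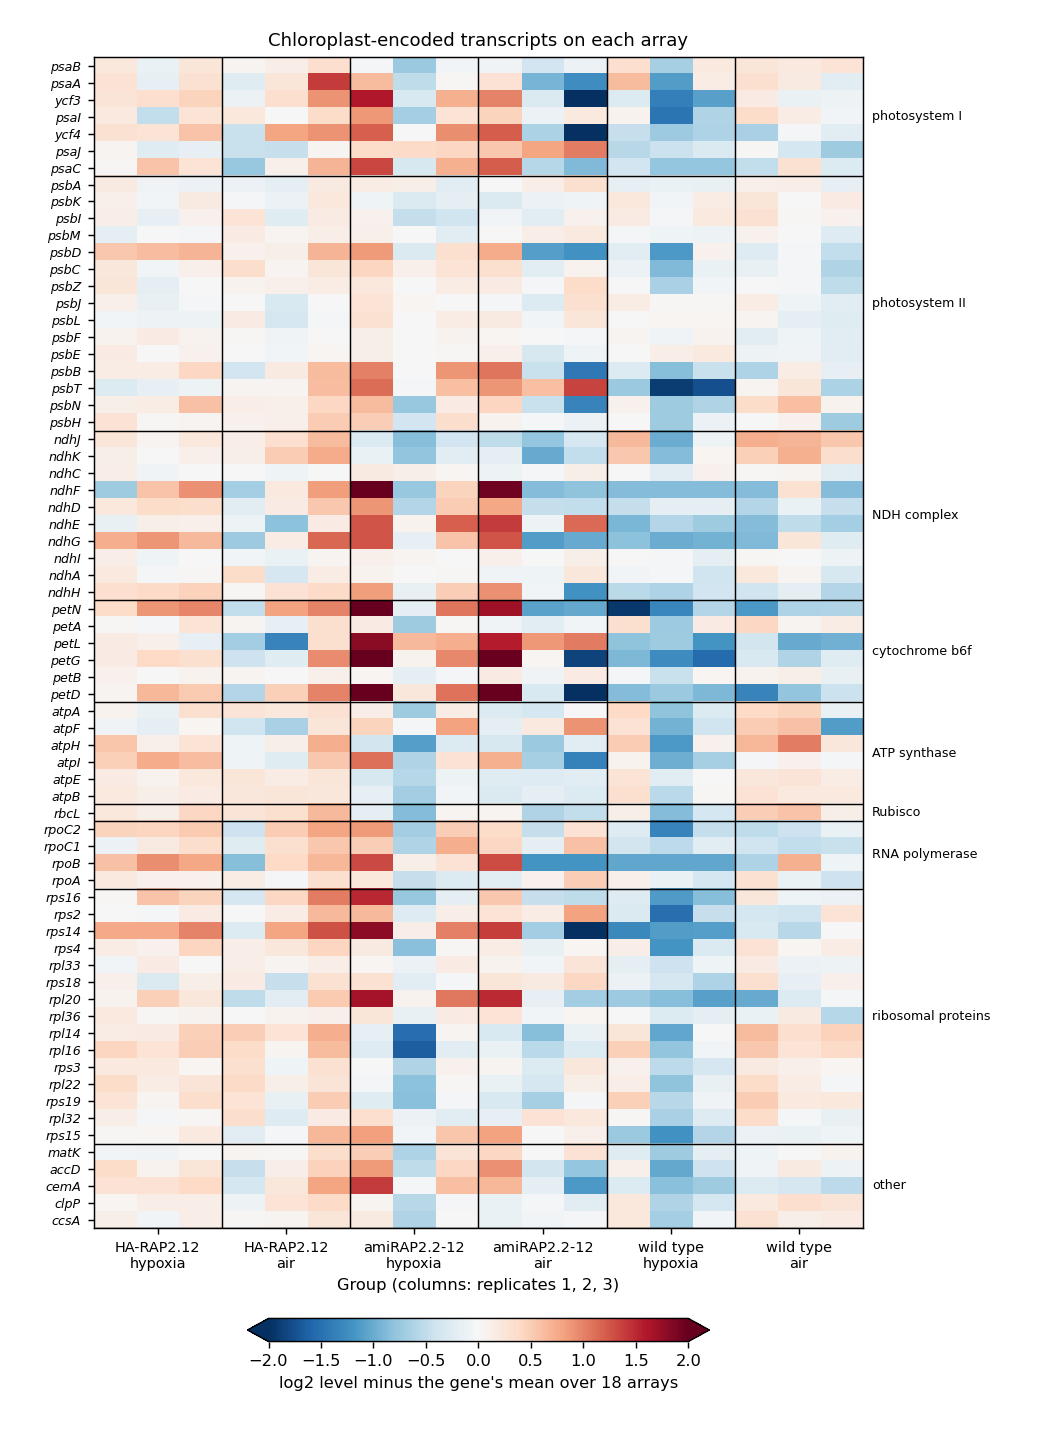
Level of each of the 69 plastid members on each of the 18 arrays, as the log2 value minus that member's mean over all arrays (colour, from −2 to 2). Rows are members by complex and columns are the 6 groups with replicates 1 to 3; whole columns shift together, among them the low replicate 2 of wild type under hypoxia and the high replicate 1 of amiRAP2.2-12 under hypoxia.

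The 3 classes ranked the groups alike at the low end. Photosystem genes averaged 10.63 ± 0.09 in HA-RAP2.12 under hypoxia, 10.65 ± 0.23 in HA-RAP2.12 in air, 10.71 ± 0.36 in amiRAP2.2-12 under hypoxia, 10.47 ± 0.37 in amiRAP2.2-12 in air, 10.20 ± 0.28 in wild type under hypoxia and 10.46 ± 0.16 in wild type in air. NDH genes averaged 9.98 ± 0.08, 9.90 ± 0.30, 10.00 ± 0.51, 9.72 ± 0.53, 9.39 ± 0.15 and 9.66 ± 0.21 in the same 6 groups. Ribosomal and polymerase genes averaged 10.62 ± 0.06, 10.58 ± 0.28, 10.44 ± 0.51, 10.33 ± 0.32, 9.89 ± 0.32 and 10.35 ± 0.03. Each of these classes was lowest in wild type under hypoxia. In that group the ribosomal and polymerase class lay furthest below its wild type air level, and the gap between the photosystem mean and the ribosomal/polymerase mean on the same array was 0.27, 0.35 and 0.33 in wild type under hypoxia, against 0.13, 0.24 and −0.06 in wild type in air. Those gaps did not overlap, whereas HA-RAP2.12 had 0.09, −0.06 and 0.01 under hypoxia and 0.12, 0.06 and 0.01 in air, which did, as did the gaps in amiRAP2.2-12 (0.17, 0.46 and 0.18 under hypoxia, 0.21, 0.23 and −0.01 in air).

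**Figure D2:**
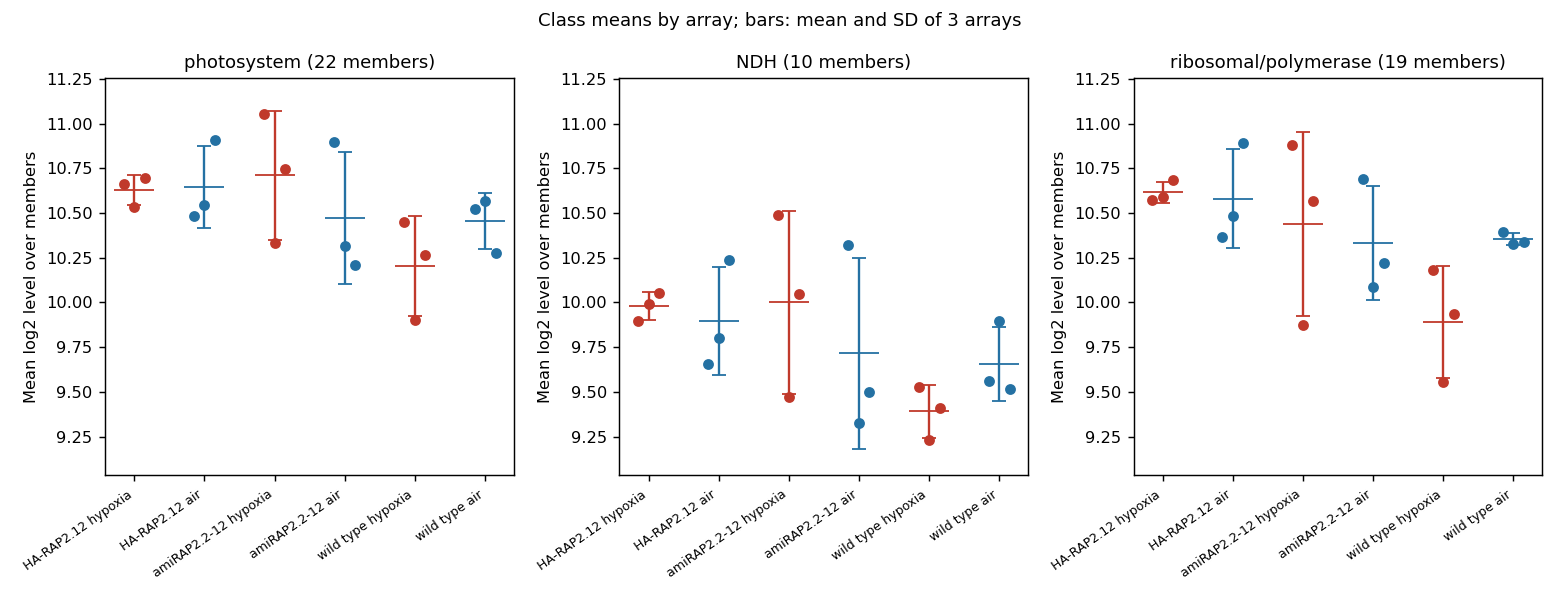
Mean log2 level of the photosystem (22), NDH (10) and ribosomal/polymerase (19) genes on each array (points), with the group mean and SD as bars, for hypoxia (red) and air (blue) in each genotype. In each class the wild type hypoxia group has the lowest mean, at 10.20, 9.39 and 9.89.

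Hypoxia against air asks how plastid transcripts stood after 1.5 h at 1% O2 in each genotype. In wild type, 61 of the 69 members had a lower mean under hypoxia and the median difference was −0.34, while in HA-RAP2.12 and amiRAP2.2-12 the members split about evenly (36 and 38 positive) with medians of 0.01 and 0.03. Among bright probe sets, 51.7% were positive in wild type and the median was 0.02. Few single members passed: 2 of 69 in wild type, psbF higher and psbT lower, against 21.8% of all probe sets, and none in HA-RAP2.12 (19.4% of all probe sets) or amiRAP2.2-12 (16.3%) by limma. At an unadjusted p under 0.05 the counts were 7 in wild type, 1 in HA-RAP2.12 and 0 in amiRAP2.2-12, beside 30.1%, 27.9% and 26.7% of all probe sets. The members' share of calls was thus far below the array's in all 3 genotypes. Median standard errors were 0.30 for members and 0.14 for bright probe sets.

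The shift in wild type depended in size on single arrays. Without wild type hypoxia replicate 2 its median was −0.16 with 52 members negative, and without wild type hypoxia replicate 1 it was −0.49. Its sign held when any single array was left out. In amiRAP2.2-12 the median was 0.20, with 58 members positive, once replicate 2 of the hypoxia group was left out, and −0.07, with 42 negative, once replicate 1 was. Without HA-RAP2.12 air replicate 3 the HA-RAP2.12 median was 0.12 with 52 positive, and without HA-RAP2.12 air replicate 1 it was −0.06 with 41 negative. Without amiRAP2.2-12 air replicate 1, 6 members passed in amiRAP2.2-12, beside 12.5% of all probe sets. In wild type 5 passed without hypoxia replicate 1 (18.5% of all probe sets), 4 without amiRAP2.2-12 hypoxia replicate 2 (24.9%), and 1 without hypoxia replicate 2 or 3 or air replicate 1 or 2 (17.2% to 17.9%). Hypoxia and air groups failed to overlap for 2 higher and 9 lower members in wild type (19.8% and 18.3% of all probe sets), for 1 higher and 5 lower in HA-RAP2.12 (16.5% and 15.5%), and for 0 higher and 1 lower in amiRAP2.2-12 (11.7% and 11.5%). Leaving out an array can only keep or raise a count of members that do not overlap. Without wild type hypoxia replicate 1, 33 members lay entirely lower in wild type under hypoxia, beside 19.9% of all probe sets. Without wild type air replicate 3, 23 did, beside 20.3%.

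**Figure D3:**
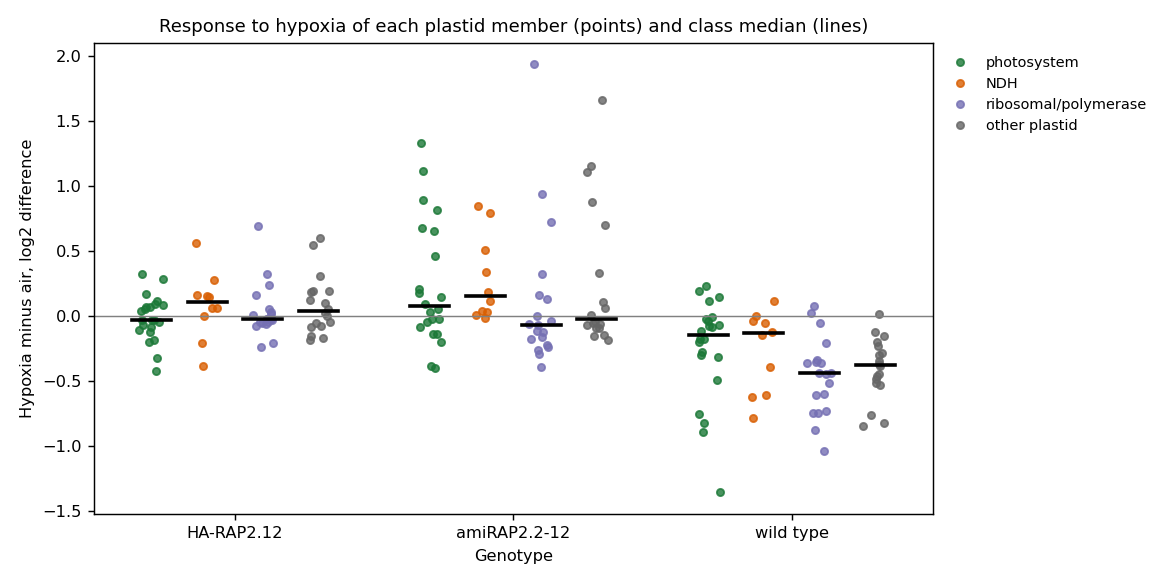
Hypoxia minus air log2 difference of each plastid member (points) with the class median (line) in HA-RAP2.12, amiRAP2.2-12 and wild type, by class. Wild type medians are −0.15 for photosystem, −0.14 for NDH and −0.44 for ribosomal/polymerase genes, while those of the transgenic lines in these 3 classes lie between −0.07 and 0.15.

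Photosystem II genes went both ways in wild type. psbF encodes a subunit of cytochrome b559 at the photosystem II core, and psbE encodes the other. psbF stood at 14.25, 14.11 and 14.25 in wild type under hypoxia, against 13.96, 14.10 and 13.96 in wild type in air. All hypoxia arrays lay above all air arrays, and the rise of 0.20 (SE 0.05) passed with an adjusted p of 0.0096. The call was lost when dim probe sets were removed, when only the wild type arrays were fitted, and when values were centred on the plastid members. psbE had 12.62, 12.75 and 12.82 under hypoxia and 12.52, 12.56 and 12.42 in air, again with no overlap (0.23, SE 0.09, adjusted p = 0.088). psbL and psbJ, small subunits read from the same transcript, had differences of 0.15 and 0.11, so the psbE-psbF-psbL-psbJ unit held all 4 of the photosystem II genes that were positive in wild type.

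psbT encodes a small photosystem II subunit. Its level was 6.60, 5.44 and 5.59 in wild type under hypoxia, against 7.41, 7.60 and 6.72 in wild type in air. Every hypoxia array was below every air array, and psbT fell by 1.36 (SE 0.36, adjusted p = 0.0146). Leaving out wild type hypoxia replicate 2 or 3, or wild type air replicate 1 or 2, or fitting only the wild type arrays, ended the call. In the other genotypes psbT had 7.07, 7.18 and 7.24 in HA-RAP2.12 under hypoxia against 7.41, 7.41 and 7.96 in air (−0.43, adjusted p = 0.551), and 8.46, 7.32 and 7.94 in amiRAP2.2-12 under hypoxia against 8.23, 7.95 and 8.69 in air (−0.38, adjusted p = 0.601). The test of the difference in response gave 0.93 (SE 0.50, adjusted p = 0.586) for HA-RAP2.12 minus wild type and 0.98 (SE 0.50, adjusted p = 0.597) for amiRAP2.2-12 minus wild type. A distinct psbT response in wild type was therefore not shown.

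psbA encodes the D1 protein, the photosystem II subunit that is replaced fastest in light. It had 10.17, 10.19 and 10.18 in wild type under hypoxia and 10.44, 10.46 and 10.18 in wild type in air (−0.18, SE 0.13, adjusted p = 0.410). Its differences between hypoxia and air were 0.04 in HA-RAP2.12 and −0.14 in amiRAP2.2-12. For psbA no comparison between groups passed at this spread. The photosystem II median in wild type was −0.07, with 4 positive and 11 negative.

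All 7 photosystem I members had negative differences in wild type, with a median of −0.30 and a range from −0.89 for ycf3 to −0.09 for psaJ, and none passed. psaB, a reaction centre protein, had 13.95, 12.95 and 13.82 in wild type under hypoxia against 13.85, 13.81 and 13.89 in air. Replicate 2 of the hypoxia group was the only array below the air range. The cytochrome b6f complex links the photosystems, and its 6 genes had a median of −0.22 in wild type, 0.16 in HA-RAP2.12 and 0.52 in amiRAP2.2-12, none passing. The 6 ATP synthase genes were all negative in wild type (median −0.41, from −0.83 for atpH to −0.20 for atpE) and split 3 and 3 in both transgenic lines.

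The NDH complex carries electrons around photosystem I. Of its 10 plastid genes 9 were negative in wild type (median −0.14), and none passed in any genotype. ndhJ had 11.44, 9.80 and 10.69 in wild type under hypoxia against 11.51, 11.46 and 11.32 in air (−0.79, SE 0.31, adjusted p = 0.0972). Its hypoxia arrays spread over more than a log2 unit, and replicate 1 reached the air level. ndhF was at or near its lowest value in most wild type arrays: 3.81 on all 3 hypoxia arrays, against 3.81, 4.99 and 3.81 in air. Since 3.81 was the lowest value ndhF took on any array, the size of its difference is not well determined.

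rbcL encodes the large subunit of Rubisco, the enzyme that fixes carbon dioxide. It had 9.38, 8.39 and 8.91 in wild type under hypoxia against 9.75, 9.84 and 9.37 in wild type in air. A single hypoxia array reached the lowest air array, and the difference of −0.76 (SE 0.28) had an adjusted p of 0.0733. In HA-RAP2.12 rbcL had 9.48, 9.38 and 9.68 under hypoxia against 9.52, 9.58 and 9.90 in air, and in amiRAP2.2-12 it had 9.06, 8.40 and 9.32 against 9.32, 8.66 and 8.78. Those pairs overlapped, with differences of −0.16 and 0.01.

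Of the ribosomal protein genes 14 of 15 were negative in wild type, with a median of −0.45, against medians of −0.03 in HA-RAP2.12 and −0.11 in amiRAP2.2-12. rps15, a protein of the small ribosomal subunit, had 5.56, 5.09 and 5.72 in wild type under hypoxia against 6.18, 6.17 and 6.21 in air. The groups did not overlap, and the difference of −0.73 (SE 0.28) had an adjusted p of 0.0848. Of the 4 polymerase genes, rpoB had 4.00 on all 3 wild type hypoxia arrays against 4.42, 5.75 and 4.96 in air (−1.04, SE 0.62, adjusted p = 0.305). The identical values lie near the lowest that rpoB took on any array, 3.84, so the size of its difference is not well determined. rpoA, which encodes the alpha subunit, differed by only −0.05.

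Among the remaining genes, clpP, a subunit of the plastid's Clp protease, had 13.00, 12.18 and 12.43 in wild type under hypoxia against 12.98, 13.13 and 13.05 in air (−0.52, SE 0.20, adjusted p = 0.0867). Replicate 1 of the hypoxia group lay within the air range and the others below it. accD encodes a subunit of acetyl-CoA carboxylase, which starts fatty acid synthesis, and had 8.56, 7.44 and 8.04 against 8.39, 8.64 and 8.35 (−0.45, SE 0.44). matK, ccsA and cemA were also negative, and none of the 5 passed.

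The next comparison sets each transgenic line against wild type under hypoxia. In HA-RAP2.12, 64 of 69 members had the higher mean (median difference 0.47), where 47.0% of bright probe sets did (median −0.02). Yet 0 of 69 members passed in limma, against 4.67% of all probe sets, and 16 (23.2%) had an unadjusted p under 0.05, as had 16.2% of all probe sets. Members whose arrays did not overlap were common: 36 of 69 (52.2%) lay entirely higher in HA-RAP2.12 and 1, psbL, entirely lower, where 10.6% and 12.9% of all probe sets did. Without any single one of the arrays compared, that higher count was between 37 and 53 (53 without wild type hypoxia replicate 1), beside 12.4% to 16.4% of all probe sets. Such a count cannot fall when an array is left out, so this range does not measure robustness. The number of members with a higher mean was smallest, 54, with a median of 0.26, without wild type hypoxia replicate 2. With limma's array weights 20 members and 17.3% of all probe sets passed, in a fit of only these 6 arrays 8 members and 3.97%, and without amiRAP2.2-12 hypoxia replicate 2, 2 members and 7.28%.

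In amiRAP2.2-12 against wild type under hypoxia, 54 of 69 members had the higher mean, where 46.9% of bright probe sets did, and the median was 0.36. The 8 left-out plastid probe sets had a median of −0.12 in this comparison, from −2.21 to 1.90, and of 0.09 in HA-RAP2.12 against wild type. psbT, petL and rps15 rose, 3 of 69 members where 0.607% of all probe sets rose and 1.42% passed in either direction, and 23 (33.3%) had an unadjusted p under 0.05, as had 12.1% of all probe sets. There were 21 members (30.4%) entirely higher and 1, psbK, entirely lower, beside 5.13% and 6.59% of all probe sets. Without any single one of the arrays compared, the higher count ranged from 21 to 39 (39 without amiRAP2.2-12 hypoxia replicate 2), beside 6.68% to 12.5% of all probe sets. Without wild type hypoxia replicate 2 there were 9 lower ones, beside 8.43%. These counts, too, could not fall below those of all arrays. The median difference was 0.21 without amiRAP2.2-12 hypoxia replicate 1. No member passed without wild type hypoxia replicate 2 or 3, without amiRAP2.2-12 hypoxia replicate 3, or in a fit of only these 6 arrays, where 0.655%, 0.462%, 0.598% and 0.0440% of all probe sets did. Leaving out wild type hypoxia replicate 1, wild type air replicate 2 or HA-RAP2.12 hypoxia replicate 3 left 1 (0.919% to 1.03% of all probe sets), leaving out amiRAP2.2-12 hypoxia replicate 2 gave 5 (1.36%), and array weights gave 19 (10.6%). Both comparisons share the wild type hypoxia arrays, so their values stand side by side here and are not independent of each other or of the wild type hypoxia response above.

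Under hypoxia psbT thus stood at 7.07, 7.18 and 7.24 in HA-RAP2.12. It stood at 8.46, 7.32 and 7.94 in amiRAP2.2-12, against 6.60, 5.44 and 5.59 in wild type. Neither line overlapped wild type. The difference was 2.03 (SE 0.36, adjusted p = 0.0181) for amiRAP2.2-12 and 1.28 (SE 0.36, adjusted p = 0.0617) for HA-RAP2.12. The amiRAP2.2-12 call was lost without wild type hypoxia replicate 2 or 3 or amiRAP2.2-12 hypoxia replicate 3. In air, where psbT had 8.23, 7.95 and 8.69 in amiRAP2.2-12 against 7.41, 7.60 and 6.72 in wild type, the line also lay entirely above wild type, by 1.05 (SE 0.36, adjusted p = 0.409).

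petL encodes a small subunit of the cytochrome b6f complex. Under hypoxia it had 8.84, 7.67 and 7.76 in amiRAP2.2-12 and 7.20, 7.14 and 6.87 in HA-RAP2.12, against 6.23, 6.32 and 5.84 in wild type. It rose by 1.96 in amiRAP2.2-12 (SE 0.40, adjusted p = 0.0334), and the HA-RAP2.12 difference was 0.94 (SE 0.40, adjusted p = 0.254). In air petL had 8.60, 7.89 and 8.07 in amiRAP2.2-12 and 6.34, 5.70 and 7.36 in HA-RAP2.12, against 6.67, 6.02 and 6.07 in wild type. The amiRAP2.2-12 difference in air was 1.93 (SE 0.40, adjusted p = 0.128), nearly the same size as under hypoxia, and its hypoxia response differed from wild type's by 0.03 (SE 0.56). The petL call was lost in 8 of 28 alternative settings, 6 of them without a single array (any wild type hypoxia array, wild type air replicate 2, or replicate 3 of either line under hypoxia).

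rps15 had 7.12, 6.24 and 6.85 in amiRAP2.2-12 and 6.32, 6.34 and 6.50 in HA-RAP2.12 under hypoxia, against 5.56, 5.09 and 5.72 in wild type. All arrays of both lines lay above wild type. It rose by 1.28 in amiRAP2.2-12 (SE 0.28, adjusted p = 0.0446), a call lost in 16 of 28 alternative settings, 14 of them without a single array, and differed by 0.93 in HA-RAP2.12 (SE 0.28, adjusted p = 0.0824).

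**Figure D4:**
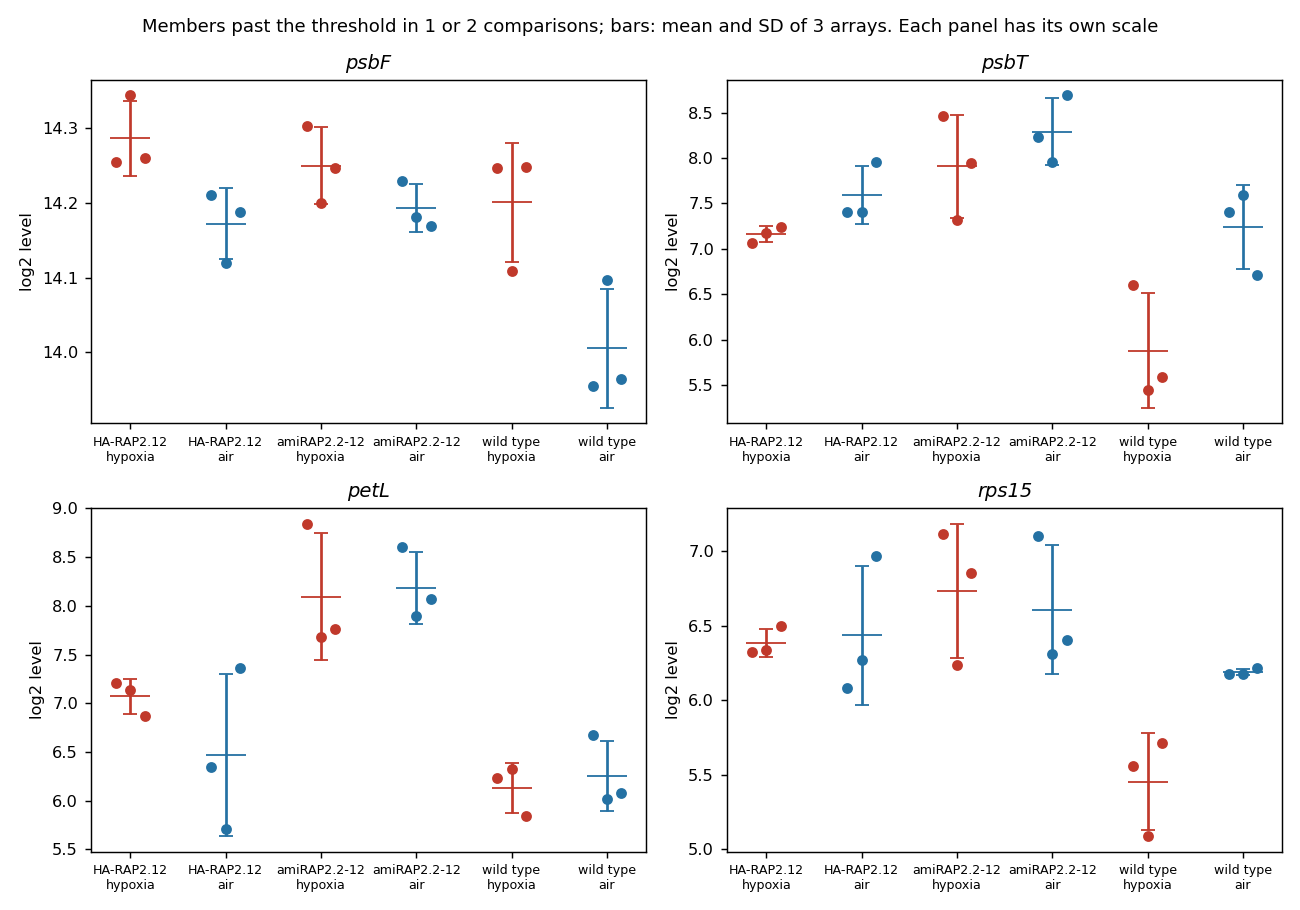
Log2 level of psbF, psbT, petL and rps15 on each array (points) with the group mean and SD as bars, each panel on its own scale, for hypoxia (red) and air (blue) in each genotype. psbT and rps15 are lowest in wild type under hypoxia, petL is high in amiRAP2.2-12 at both oxygen levels, and psbF is lowest in wild type in air.

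Other members with large differences under hypoxia did not pass. psaJ, a small photosystem I subunit encoded beside petL and petG, had 12.18, 12.21 and 12.23 in amiRAP2.2-12 and 11.87, 11.58 and 11.64 in HA-RAP2.12, against 11.26, 11.38 and 11.53 in wild type. Neither line overlapped wild type, and the amiRAP2.2-12 difference was 0.82 (SE 0.19, adjusted p = 0.054). In air psaJ had 12.36, 12.61 and 12.84 in amiRAP2.2-12 against 11.85, 11.47 and 11.10 in wild type (1.13, SE 0.19, adjusted p = 0.0807). ndhE, a membrane subunit of the NDH complex, had 9.23, 8.03 and 9.17 in amiRAP2.2-12 against 7.05, 7.39 and 7.25 in wild type under hypoxia (1.58, SE 0.39, adjusted p = 0.0752). petG and petN, small cytochrome b6f subunits, differed by 2.39 (SE 0.79) and 2.30 (SE 0.75) in amiRAP2.2-12 and by 1.52 and 2.02 in HA-RAP2.12.

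Some members were well apart from wild type in HA-RAP2.12 under hypoxia. rps14 had 9.16, 9.15 and 9.38 in HA-RAP2.12 against 7.11, 7.28 and 7.30 in wild type under hypoxia, a difference of 2.00 (SE 0.90) with an adjusted p of 0.295. The shared standard error is large because rps14 ran from 4.82 to 9.79 in amiRAP2.2-12 in air. ndhG, another membrane subunit of NDH, had 7.35, 7.51 and 7.28 against 5.80, 5.64 and 5.69 (1.67, SE 0.61, adjusted p = 0.169). rpoB had 5.62, 5.97 and 5.81 against 4.00 on each wild type array (1.80, SE 0.62, adjusted p = 0.140). psbA and rbcL had smaller differences, 0.15 (SE 0.13) and 0.62 (SE 0.28). Their HA-RAP2.12 arrays also lay entirely above wild type, for rbcL only narrowly, and neither passed.

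By class, the HA-RAP2.12 medians under hypoxia were 0.28 for photosystem genes (17 positive, 5 negative, 12 entirely higher), 0.45 for NDH (10 positive, 0 negative, 5 entirely higher) and 0.53 for ribosomal and polymerase genes (19 positive, 0 negative, 11 entirely higher). In amiRAP2.2-12 they were 0.39 (18 and 4, 6 entirely higher), 0.38 (8 and 2, 5 entirely higher) and 0.29 (14 and 5, 5 entirely higher). Of all probe sets, 10.6% lay entirely higher in HA-RAP2.12 and 5.13% in amiRAP2.2-12. The 18 other members had medians of 0.42 in HA-RAP2.12 and 0.26 in amiRAP2.2-12. Among them the cytochrome b6f genes had medians of 1.10 in HA-RAP2.12 and 2.06 in amiRAP2.2-12, and the ATP synthase genes 0.29 and −0.08. Among the members the sizes followed signal. The 34 dimmer members, split at a mean level of 10.50, had medians of 0.93 in HA-RAP2.12 and 1.04 in amiRAP2.2-12, and the 35 brighter members 0.26 and 0.08. Of the entirely higher members, 28 of 36 in HA-RAP2.12 and 18 of 21 in amiRAP2.2-12 were dimmer ones. The same split by level over all probe sets is not given here, so this is no trait particular to plastid members.

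**Figure D5:**
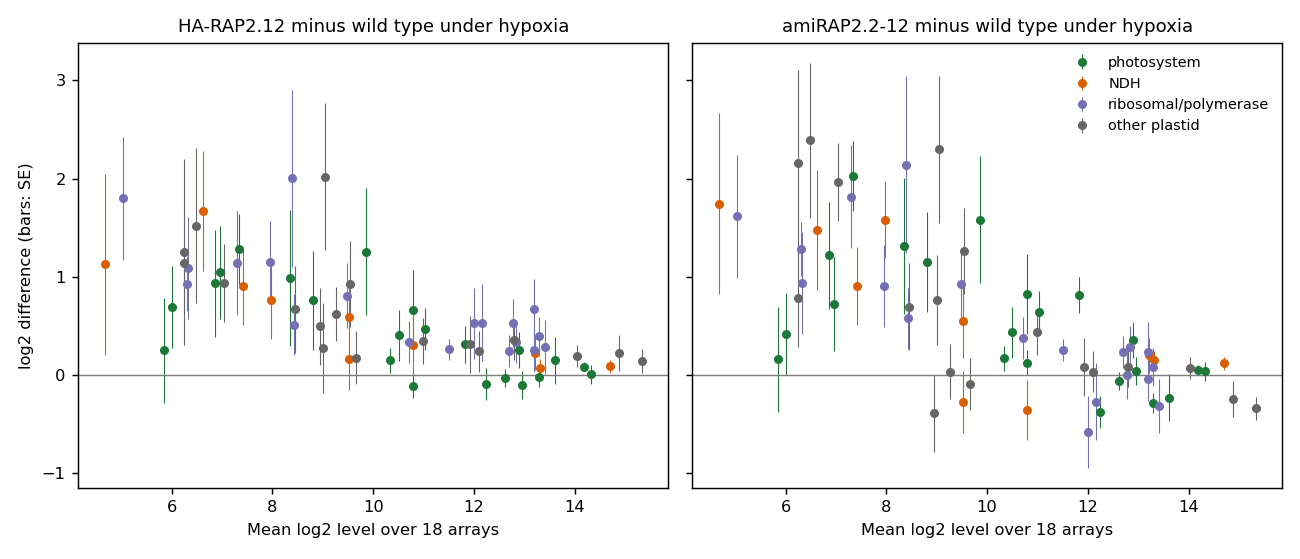
Log2 difference from wild type under hypoxia (with SE bars) for each plastid member against its mean log2 level over 18 arrays, in HA-RAP2.12 and amiRAP2.2-12. Differences reach 2.02 and 2.39 among dim members, and the 35 brighter members have medians of 0.26 and 0.08.

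In air HA-RAP2.12 was closer to wild type than under hypoxia, with a median absolute difference of 0.15 against 0.47 over members. For amiRAP2.2-12 it was 0.32 in air against 0.39 under hypoxia, where bright probe sets had 0.12 and 0.15. HA-RAP2.12 against wild type had 52 of 69 members positive (median 0.11), 0 passed in limma where 0.536% of all probe sets did, and 2 (2.90%) had an unadjusted p under 0.05, as had 9.01% of all probe sets. Arrays did not overlap for 8 higher and 0 lower members, against 7.38% and 8.8% of all probe sets. Without HA-RAP2.12 air replicate 3 the median was 0.01, with 8 higher and 6 lower members, beside 10.6% and 12.0% of all probe sets. psbF, one of the 8, had 14.21, 14.12 and 14.19 in HA-RAP2.12 against 13.96, 14.10 and 13.96 in wild type (0.17, SE 0.05, adjusted p = 0.188), and 14.23, 14.18 and 14.17 in amiRAP2.2-12 (0.19, adjusted p = 0.241).

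amiRAP2.2-12 against wild type in air had 39 of 69 members positive (median 0.04), with 0 passing in limma (0.0132% of all probe sets) and 15 (21.7%) at an unadjusted p under 0.05, beside 7.77% of all probe sets. Members went both ways with no overlap: 7 were entirely higher (rpoC1, psbF, petL, psaJ, psbT, ndhE and rps15), against 6.03% of all probe sets, and 14 entirely lower, against 6.11%. The lower ones included atpB and atpE, the catalytic beta and the epsilon subunit of the ATP synthase, which are read as overlapping genes. atpB had 14.60, 14.70 and 14.60 in amiRAP2.2-12 against 15.18, 15.09 and 15.09 in wild type (−0.48, SE 0.18, adjusted p = 0.490), and atpE differed by −0.45 (SE 0.12, adjusted p = 0.263). ndhJ had 10.28, 10.02 and 10.46 against 11.51, 11.46 and 11.32 (−1.18, SE 0.31, adjusted p = 0.261), and its neighbour ndhK differed by −1.07 (SE 0.32). rbcL had 9.32, 8.66 and 8.78 against 9.75, 9.84 and 9.37 (−0.74, SE 0.28, adjusted p = 0.486). Of the 6 ATP synthase genes 5 were negative (median −0.45). Without amiRAP2.2-12 air replicate 1 the median over all members was −0.23 and 26 lay entirely lower, beside 8.95% of all probe sets. Without wild type air replicate 3 the median was −0.04.

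The difference of the hypoxia responses tests whether a line departed from wild type. It was positive for 58 of 69 members in HA-RAP2.12 (median 0.33) and for 58 in amiRAP2.2-12 (median 0.33), where 48.2% and 46.8% of bright probe sets were positive. Since the wild type arrays enter both, these values are not independent. No member passed in either (1.62% and 0.176% of all probe sets by limma), with 0 and 4 at an unadjusted p under 0.05, beside 11.2% and 9.59%. The median standard error of a member here was 0.43, as large as most of the differences. NDH genes were positive 10 of 10 in both lines, with medians of 0.26 and 0.43, ribosomal and polymerase genes 18 and 16 of 19 (0.44 and 0.32), and photosystem medians were 0.15 and 0.22. No class difference in response was tested.

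Other transcripts were set beside the plastid members. Of the nuclear genes listed for photosynthesis, 8 had a named probe set: PSBY, PSAN, LHCB4.1, PSAE-1, ATPC1, LHCB4.2, LHCB4.3 and PSBW. Their mean level was 13.87 in HA-RAP2.12 under hypoxia, 13.89 in HA-RAP2.12 in air, 13.91 in amiRAP2.2-12 under hypoxia, 13.90 in amiRAP2.2-12 in air, 13.61 in wild type under hypoxia and 13.91 in wild type in air. Thus the nuclear set was also lowest in wild type under hypoxia. Its median difference from air there was −0.11, from −1.78 to 0.06, and 2 of the 8 passed by limma. LHCB4.3, an antenna protein of photosystem II, fell by 1.78 (adjusted p = 3.2e-05). ATPC1, the ATP synthase gamma subunit, fell by 0.17 (adjusted p = 0.040). In HA-RAP2.12 ATPC1 fell by 0.26 (adjusted p = 0.0041), and in amiRAP2.2-12 none of the 8 passed. Under hypoxia LHCB4.3 was higher than in wild type by 2.33 in HA-RAP2.12 and by 1.88 in amiRAP2.2-12, and it was the only one of the 8 to pass in either comparison. The medians of the 8 in these comparisons were −0.01 and 0.09, against 0.47 and 0.36 for the plastid members. The nuclear set had a high signal, and the brighter plastid members also had smaller medians, so this is not a comparison at like signal. For the difference in response the nuclear medians were 0.08 in HA-RAP2.12 and 0.14 in amiRAP2.2-12. Whether the nuclear set shared the plastid shift was not tested. Mitochondrial genes had 23 probe sets for 16 genes. Under hypoxia nad9 rose by 0.66 in wild type and ccb452 by 0.91 in amiRAP2.2-12, and no other mitochondrial probe set passed between hypoxia and air. In each group, however, 13 to 15 of the 23 lay below log2 2.5, where values carry little information. Whether mitochondrial transcripts as a whole were stable therefore cannot be told from this list. Of the organelle polymerases of phage type 1 of 3 was measured, and it lay at the lowest value of the array. None of the 6 sigma factors, 12 polymerase-associated proteins or 12 plastid RNA-processing factors listed was measured by a named probe set.

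Root markers were 2 genes. AT4G11290 lay below log2 2.5 in every group. PYK10, a root beta-glucosidase, had 6.86 ± 1.57 in HA-RAP2.12 under hypoxia, 7.81 ± 0.08 in HA-RAP2.12 in air, 6.27 ± 2.22 in amiRAP2.2-12 under hypoxia, 8.26 ± 0.50 in amiRAP2.2-12 in air, 8.66 ± 0.09 in wild type under hypoxia and 7.89 ± 0.05 in wild type in air. It was highest where the plastid mean was lowest, no PYK10 comparison passed, and its part in the plastid results was not tested. Markers listed for epidermis, guard cells, vasculature and senescence had no named probe set.

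Members that lie side by side on the plastid genome tended to share their array profile. The 68 neighbouring pairs in gene order had a median r of 0.47 over 18 arrays, against 0.35 for all 2346 pairs. Within textbook transcription units, which were listed after the values had been seen, atpB and atpE had r = 0.95, the rpoB-rpoC1-rpoC2 unit a median of 0.68 and the rps19-to-rpoA ribosomal unit 0.62. In ndhC-ndhK-ndhJ the highest pair was 0.96 but the median 0.04. The 4 genes of the psbE unit had a median of 0.39. Deviations of arrays from their group means correlated between −0.80 and 0.77 over members, beyond 0.6 in 14 of 135 pairs of arrays, and between −0.58 and 0.64 over bright probe sets, in 1 of 135.

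Outside the plastid list, similar profiles were sought only among probe sets with 1 annotated gene. Of these ccb382, a mitochondrial gene of cytochrome c biogenesis, was most like the photosystem mean (r = 0.80) and the ribosomal/polymerase mean (r = 0.86). For the NDH mean it came after AT2G39690 (r = 0.75), at 0.72. The next nearest to the photosystem mean were AT3G05190 (0.67), AT2G07708 (0.66), AT2G36885 (0.66) and AT2G39690 (0.65), to the NDH mean AT2G07721 (0.70), AT2G04850 (0.69) and AT4G34290 (0.69), and to the ribosomal/polymerase mean AT3G52960 (0.77), AT1G29980 (0.76), AT2G36885 (0.76) and AT4G31210 (0.75). AT3G05190, AT2G07708 and AT2G07721 had mean levels of only 3.14, 3.31 and 2.55, where values carry little information. These are Pearson correlations over 18 arrays in 6 groups, given as a description.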

How the data were processed

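Total RNA of whole rosettes was labelled with biotin and hybridised to Affymetrix Arabidopsis Genome arrays, per the labels' protocols. The deposited values are GCRMA values on the log2 scale, per the submitters' processing notes; the version is not given in the sources used here. GCRMA corrects background by probe sequence and normalizes between arrays, so values near the lowest level carry little information. Of 22810 probe sets, 64 controls were left out; 13513 probe sets have 1 annotated gene, 503 have several and 8730 are not listed. Symbols were updated from the TAIR10.1 table for 13436 of them.

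Differences were tested with limma 3.58.1 in R 4.3.3 (lmFit and eBayes, 6 group means on all 18 arrays, two-sided, Benjamini-Hochberg over 22746 probe sets, threshold 0.05) in 9 comparisons. Summaries and figures were made with Python 3.11.15, pandas 2.3.3, numpy 2.4.6 and matplotlib 3.10.9. The number of arrays, 3 a group, limits the precision. The fit was tested on simulated data. Groups do not overlap where all arrays of a group lie above, or all below, those of the other. Members and gene lists were chosen with earlier results of these data known. Members named are those past the threshold, the 3 largest differences of either sign in each comparison, psbA, rbcL, psbT, petL, ndhF, rpoB, clpP and accD, and the extremes of level in each subgroup; a few others were named after their values were seen (atpB, psbK, rpoC1, matK, ccsA and cemA).

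Replicate numbers were checked for pairing by correlating same-numbered arrays' deviations from group means over bright probe sets that are not members. Hypoxia and air arrays of wild type correlated at 0.100 to 0.237 (3 of 3 pairs over 0.1), those of HA-RAP2.12 at 0.058 to 0.456 and those of amiRAP2.2-12 at 0.051 to 0.486 (2 of 3 pairs each). Over members the same pairs correlated at 0.05 to 0.33 in wild type, 0.15 to 0.54 in HA-RAP2.12 and 0.27 to 0.77 in amiRAP2.2-12. The labels tie no number to a plant or day. The alternatives tried were other scalings, a filter on dim probe sets, array weights, fewer arrays, a replicate block, a minimum size and leaving out each array.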

Additional observations from a re-analysis of the deposited data

Results flagged for a closer look

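A plastid probe set outside the 69 members drew attention, chosen after its values were seen. The rps12 gene, which encodes a protein of the small ribosomal subunit, has probe sets that name its 2 copies and were therefore left out of the comparisons above. One of them averaged 9.55 ± 0.74 in amiRAP2.2-12 and 11.76 ± 0.98 in wild type under hypoxia (SD, n = 3 arrays each), a log2 difference of −2.21 (SE 0.44, adjusted p = 0.032 by limma). The difference in air was −2.59 (adjusted p = 0.081). The other rps12 probe set differed by −1.12 under hypoxia (adjusted p = 0.36) and by −2.69 in air (adjusted p = 0.090). Groups of 3 arrays are too small for the check for a sample far from the others.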

How the results depend on the processing

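Counts of members past the threshold depended on the setting, and so did the share of all probe sets, given in parentheses. Centring each array on the plastid members, which removes a shift shared by them, gave 4 (7.47%) for hypoxia in amiRAP2.2-12, 1 (11.4%) for hypoxia in wild type, 4 (3.35%) for HA-RAP2.12 and 11 (2.70%) for amiRAP2.2-12 against wild type under hypoxia, 5 (0.629%) for amiRAP2.2-12 in air and 1 (1.16%) for its difference in response. The median of all probe sets then moved to 0.25 for hypoxia in wild type, and to −0.37 and −0.40 for HA-RAP2.12 and amiRAP2.2-12 under hypoxia. With dim probe sets removed the counts were 5 (38.8%) for hypoxia in wild type, 2 (10.0%) and 5 (3.77%) for HA-RAP2.12 and amiRAP2.2-12 under hypoxia and 2 (0.277%) for amiRAP2.2-12 in air. Array weights gave 15 (32.4%), 20 (17.3%), 19 (10.6%) and 2 (0.919%) for the same comparisons. With only the arrays compared there were 1 (23.1%) for hypoxia in wild type and 8 (3.97%) and 0 (0.0440%) for the lines under hypoxia, and with median centring 1 (5.05%) and 5 (1.56%) for the lines under hypoxia. A minimum log2 difference of 1 left 1 (7.07%) for hypoxia in wild type. Another alternative, chosen after seeing the data, left out 4 arrays that deviated together. They were replicate 1 of both HA-RAP2.12 groups and replicate 2 of both amiRAP2.2-12 groups, with no wild type array among them. HA-RAP2.12 then gave 1 (2.71%) in air and 2 (6.82%) under hypoxia and amiRAP2.2-12 gave 2 (0.246%) in air. Without single arrays the counts ranged from 0 to 6 for hypoxia in amiRAP2.2-12 (12.5% to 16.0%; 6 without its air replicate 1), from 1 to 5 for hypoxia in wild type (17.2% to 24.9%), from 0 to 2 for HA-RAP2.12 under hypoxia (1.81% to 7.28%), from 0 to 1 for amiRAP2.2-12 in air (0% to 1.66%) and from 0 to 5 under hypoxia (0.462% to 4.49%). The cause of these changes was not tested. With the replicate block the counts were 2 for hypoxia in wild type (20.8%), 3 for amiRAP2.2-12 under hypoxia (0.989%) and 0 elsewhere, as in the main fit. That block was a single factor shared by the 3 genotypes. Over members, air replicate 1 of HA-RAP2.12 and of amiRAP2.2-12 deviated in opposite ways (r = −0.80). The equal counts therefore do not show whether pairing within a genotype matters. Over 9576 values of 38 named members, 94 gained a call, 36 lost it and 380 changed sign with no call in either setting; no call reversed.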

Other observations

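rps7, another gene of the small ribosomal subunit with a probe set naming 2 copies, differed in amiRAP2.2-12 from wild type by −1.42 under hypoxia (adjusted p = 0.096) and by −1.91 in air (adjusted p = 0.111), by limma. It lies beside rps12 in the plastid gene order, and neither of its differences passed.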
